A study of Mus musculus with 6 samples.

Results

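The 10 genes described here are the genes of fibroblast growth factor (FGF) signalling at the cell surface that were picked by name for this tissue: the secreted ligands Fgf1, Fgf2, Fgf7 and Fgf10, the intracellular FGF homologous factor Fgf13, the receptors Fgfr1, Fgfr2 and Fgfr3, the receptor-like Fgfrl1, and the secreted binding protein Fgfbp1. They are 10 of 26814 gene symbols with counts, and 9 of them passed the filter on low counts. RNA came from the top lip of adult female mice on the C57BL/6J background, 3 wild type (WT) and 3 homozygous for the targeted Gtf2ird1 tm1Hrd allele (KO), with 1 mRNA library per mouse. The allele is present in every cell of the body, and the lip piece holds epidermis, dermis, hair follicles, muscle, nerve and vessels together.

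FGFs are secreted proteins that bind receptor tyrosine kinases together with heparan sulfate chains and signal chiefly through the MAP kinase cascade. In skin, FGF7 and FGF10 are made by dermal cells and act on the epithelial form of FGFR2, so that the ligand comes from one layer and the receptor sits in the other. FGFBP1, a secreted carrier made by keratinocytes, releases FGFs from the heparan sulfate store and brings them to their receptors, whereas FGFRL1 binds FGFs but lacks a kinase domain, and FGF13 stays within the cell and binds voltage-gated sodium channels.

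Fgfbp1 and Fgf7, the pair of members with the lowest p-values, had about 3 times as much RNA in the libraries labelled KO as in WT, and Fgf1 was 1.73-fold higher. The receptor gene Fgfr1 stood at 61.8% of its WT level and Fgfrl1 at 45.2%, while the other receptor genes, Fgfr2 and Fgfr3, did not pass the test. Secreted ligands did not all move one way, because Fgf10 had a negative log2 fold change that did not pass the test and Fgf2 was too low for the filter on low counts. By edgeR's quasi-likelihood test with an adjusted p under 0.05 over all 15009 tested genes, 3 members were called higher, where 4.38% of all tested genes were, and 2 members were called lower, where 2.09% of all tested genes were. The remaining 4 tested members were not called. In 3 members all KO values lay above all WT values, and in 3 members all lay below, where 31.5% of all tested genes had no overlap in either direction.

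The stretches of 250 bases before the annotated start are printed for the 2 members that rose most and for the member that fell most. They come from RefSeq on the GRCm38.p6 build and run 5′ to 3′ on the strand of the gene, and capitals mark matches to a searched motif.
Fgfbp1 (chr5:43981800-43982049, minus strand): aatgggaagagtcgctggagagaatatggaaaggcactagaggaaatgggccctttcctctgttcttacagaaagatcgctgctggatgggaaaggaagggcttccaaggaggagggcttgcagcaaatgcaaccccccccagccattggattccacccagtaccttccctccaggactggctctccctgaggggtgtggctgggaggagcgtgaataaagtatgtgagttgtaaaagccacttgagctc
Fgf7 (chr2:126034408-126034657, plus strand): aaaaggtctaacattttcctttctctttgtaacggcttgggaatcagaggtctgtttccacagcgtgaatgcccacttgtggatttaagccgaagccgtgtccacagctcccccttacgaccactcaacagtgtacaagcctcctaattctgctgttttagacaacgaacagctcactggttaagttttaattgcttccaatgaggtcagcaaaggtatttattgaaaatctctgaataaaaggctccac
Fgfrl1 (chr5:108693979-108694228, plus strand): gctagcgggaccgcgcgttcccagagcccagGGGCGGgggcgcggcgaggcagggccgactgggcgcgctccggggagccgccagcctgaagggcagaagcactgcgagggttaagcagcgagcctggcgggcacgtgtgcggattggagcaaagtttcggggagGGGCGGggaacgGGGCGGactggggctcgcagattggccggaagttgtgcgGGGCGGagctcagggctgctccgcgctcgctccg
The last bases of the Fgfbp1 window lie inside the gene's annotated span, because the start used for the window is not the outermost one.

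The windows were searched on both strands for 5 motifs. These were GGATTA (a core bound by GTF2IRD1, searched in this form only) and TGANTCA (a loose pattern for the AP-1 site, with any base at N). The others were GAAANNGAA (core of the interferon response element), TATAAA (the sequence of the TATA box) and GGGCGG (Sp1 GC box). None of the 5 was found in the Fgfbp1 window, with a GC content of 53.6%, or in the Fgf7 window, at 43.6%. The Fgfrl1 window, at 73.6% GC, held 4 GC boxes, which began at -219, -85, -73 and -34 from the start. Of 32851 promoter windows searched in the same way, 32.7% held a GC box, 12.4% a TATA box, 7.13% the interferon response core, 6.75% the AP-1 pattern and 6.25% GGATTA. Across the 12 windows listed for 8 members, GGATTA, the TATA box and the interferon response core had no match. Other forms of these motifs were not searched. A single match to the AP-1 pattern was found, with the letters TGAATCA, in 1 of the Fgf13 windows at -156. Windows of Fgf13, Fgf2, Fgf10 and Fgfr3 held GC boxes. Fgf1 and Fgfr1 had no entry. A match describes the letters in these windows and was not tested for binding.

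The libraries held between 20164081 and 29491767 counts on genes, so that 3 counts, the limit that a count of 0 allows, corresponded to between 0.0986 and 0.154 CPM, the usual scaling of counts by library size, here with TMM factors. The targeted gene, Gtf2ird1, was at 78.2, 70.2 and 70.7 CPM in WT1, WT2 and WT3 and at 166, 162 and 144 CPM in KO1, KO2 and KO3 (log2 fold change 1.11, standard error 0.13, adjusted p = 0.0018). It was higher in every library labelled KO, a count per gene does not tell a targeted from an intact transcript, and every direction given here is therefore that of the library labels. Over all tested genes the median log2 fold change was -0.02. KO3 was the KO library nearest to the WT mean in 8 of the 10 members, and in each of the 5 called ones. In whole tissue, fewer cells of a type and less RNA per cell cannot be told apart.

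Marker genes of 12 cell types were read in the same libraries to show what else differed in the tissue pieces. Of all tested genes, 48.0% had a positive log2 fold change, 4.38% were called higher and 2.09% lower. Of 11 dermal fibroblast markers, 10 had a negative log2 fold change and none was called (median -0.50), and their summed level was 7155 to 9134 CPM in WT and 3176 to 7439 CPM in KO. All 12 skeletal muscle markers were negative and 2 were called lower (median -1.003, 13855 to 17538 CPM against 7057 to 10736 CPM). All 10 hair follicle markers were negative with 1 called (5787 to 7145 CPM against 3685 to 4894 CPM), as were all 7 Schwann and nerve markers with 1 called (383 to 417 CPM against 204 to 340 CPM) and all 6 adipocyte markers with 1 called (78.1 to 102 CPM against 54.0 to 56.7 CPM). On the keratinocyte side, 4 of 8 basal markers were positive with 1 called higher (11264 to 12147 CPM against 11530 to 12805 CPM), 7 of 9 suprabasal markers were positive with 1 called higher (18476 to 23321 CPM against 29600 to 45472 CPM), and all 8 markers of wounding and hyperproliferation were positive with 2 called higher (3931 to 5700 CPM against 6099 to 9653 CPM). No endothelial marker of 7, no macrophage marker of 6, no melanocyte marker of 5 and no skin T cell marker of 6 was called. All 7 endothelial markers were negative (median -0.39), as were 4 of 6 macrophage markers (median -0.09) and 4 of 5 melanocyte markers (median -0.37), whereas 5 of 6 T cell markers were positive (median 0.52). Their sums ran from 258 to 297 CPM in WT and 156 to 293 CPM in KO for endothelium, 163 to 222 against 165 to 208 CPM for macrophages, 44.8 to 62.9 against 40.1 to 46.8 CPM for melanocytes, and 125 to 183 against 73.2 to 138 CPM for T cells, most of it Thy1, the 1 negative marker of that list, which was picked out after its values were seen and is not specific to T cells (145 ± 27.0 CPM in WT, 83.9 ± 31.9 CPM in KO). No list had a tested marker at 0 in all libraries.

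**Figure D1:**
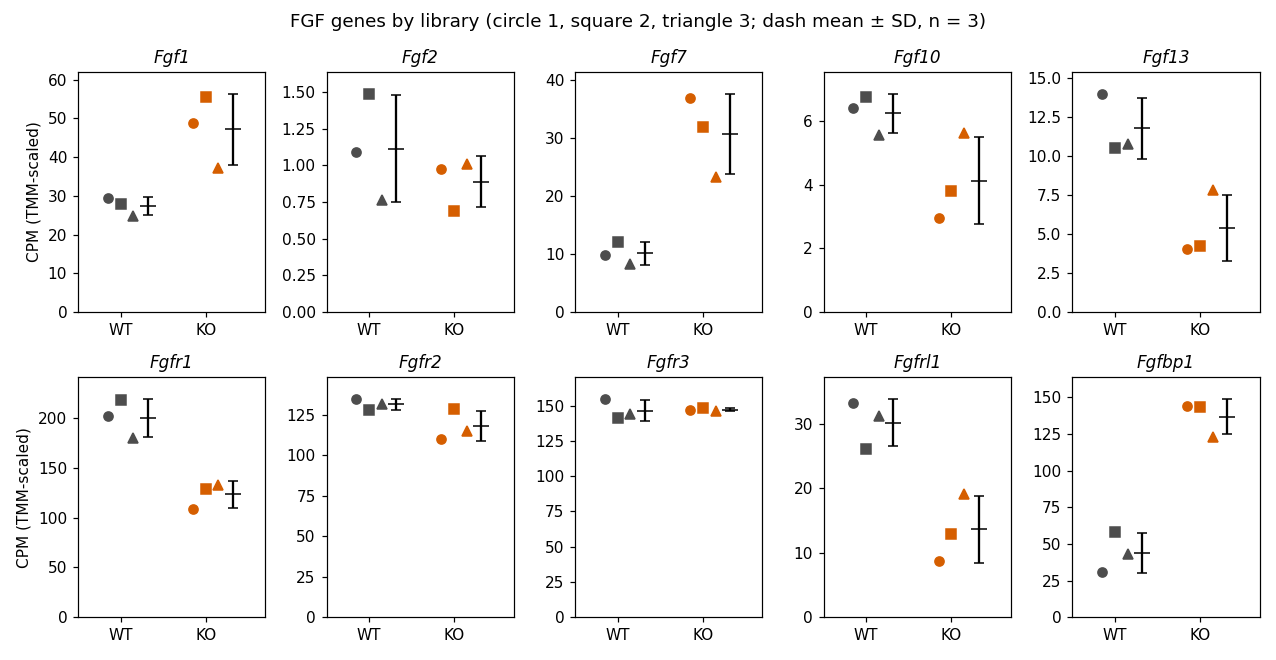
Level of each of the 10 genes in CPM (TMM-scaled, linear axes from 0) in each library, WT in grey and KO in orange, with dashes at the mean and bars of ± SD (n = 3). Fgf1, Fgf7 and Fgfbp1 lie higher in every KO library, Fgf13, Fgfr1 and Fgfrl1 lie lower in every KO library, and the groups overlap in Fgf2, Fgf10, Fgfr2 and Fgfr3.

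Among the ligands, Fgf7, known as keratinocyte growth factor, showed the widest gap between genotypes. Fgf7 (chromosome 2, 126034658 to 126091185, plus strand, GRCm38) was at 9.94, 12.1 and 8.32 CPM in WT1, WT2 and WT3 and at 37.0, 32.0 and 23.3 CPM in KO1, KO2 and KO3. The lowest KO library, KO3, was well above the highest WT library, WT2, and the groups did not overlap. The means were 10.1 ± 1.90 CPM in WT and 30.8 ± 6.94 CPM in KO (SD, n = 3), a 3.03-fold rise (log2 fold change 1.60, standard error 0.22, 95% interval 1.09 to 2.11, adjusted p = 0.00473 in edgeR's quasi-likelihood test). Without any 1 library Fgf7 was still called, with an adjusted p of 0.0375 or less, with log2 fold changes from 1.48 to 1.81. Fgf7 is known as a product of fibroblasts and of skin T cells. Of the first markers of those lists, Col1a1 and Col1a2, which encode the chains of type I collagen, had log2 fold changes of -0.85 and -0.80 (adjusted p = 0.240 and 0.198). Cd3e and Cd3g, chains of the T cell receptor complex, were at 1.30 ± 0.54 and 1.36 ± 0.35 CPM in WT and at 1.499 ± 0.52 and 2.29 ± 1.19 CPM in KO (adjusted p = 0.753 and 0.250). Over the whole T cell list 5 of 6 markers were positive (median 0.52) and none was called, while 10 of 11 fibroblast markers were negative. The part of either cell type in the Fgf7 result was not tested.

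Fgf1, a ligand that can bind every FGF receptor and leaves the cell without a signal peptide, rose less. It lies on chromosome 18 (38838672 to 38929470, minus strand) and was at 29.4, 27.8 and 24.8 CPM in WT1, WT2 and WT3 and at 48.8, 55.4 and 37.3 CPM in KO1, KO2 and KO3. The groups did not overlap, with KO3 again the lowest of the KO libraries. Means were 27.3 ± 2.33 CPM in WT and 47.2 ± 9.17 CPM in KO, with a log2 fold change of 0.79 (standard error 0.17, 95% interval 0.39 to 1.19, adjusted p = 0.0379). That call was lost without any 1 of WT1, WT2, WT3, KO1 and KO2, with log2 fold changes between 0.71 and 0.86 and adjusted p between 0.0781 and 0.160, while without KO3 it held (0.94, adjusted p = 0.00213). It was also lost with library size alone as the scaling (0.78, adjusted p = 0.0555).

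Fgf10, of the same subfamily as Fgf7 and a ligand of the same epithelial receptor form, did not follow it. Fgf10 (chromosome 13, 118714699 to 118792573, plus strand) was at 6.42, 6.76 and 5.58 CPM in the WT libraries and at 2.97, 3.81 and 5.62 CPM in KO1, KO2 and KO3. KO1 and KO2 were below every WT library, whereas KO3 lay just above WT3, so the groups overlapped. The log2 fold change of -0.60 (standard error 0.25, 95% interval -1.18 to -0.01) was not called (adjusted p = 0.163), and without KO3 it was -0.87 with an adjusted p of 0.014. In that setting 2496 of 14802 tested genes were called higher and 2395 lower. Exons of Fgf10 overlap those of Gm16263 on the opposite strand, and the strand setting of the counting is not given in the sources used here.

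The CPM of Fgf7 divided by that of Fgf10 was 1.55, 1.79 and 1.49 in WT1, WT2 and WT3 and 12.5, 8.39 and 4.14 in KO1, KO2 and KO3. The ratio was higher in every KO library than in every WT library, and it varied 3-fold among the KO libraries themselves. The ratio was not tested, because the pair was set out with the values of both genes known.

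Fgf2, an abundant growth factor in many tissues, was detected at a low level in the lip. It had 30, 35 and 17 counts in WT1, WT2 and WT3 and 19, 21 and 22 counts in KO1, KO2 and KO3, or between 0.690 and 1.49 CPM. The groups overlapped. Fgf2 failed the filter of 1 CPM in 3 libraries, which uses CPM before the TMM factors, so that it entered no count of called members. It failed narrowly, since with the factors it was at 1.09, 1.49 and 1.01 CPM in WT1, WT2 and KO3. With no filter, Fgf2 had a log2 fold change of -0.30 ± 0.34 (standard error) and an adjusted p of 0.626, a difference that was not called. Fgf2 overlaps exons of Nudt6 on the opposite strand, and how reads in the shared stretch were assigned is not known here.

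Fgf13, which is not secreted, was lower in every library labelled KO. It lies on chromosome X (59062139 to 59585572, minus strand) and was at 14.0, 10.5 and 10.8 CPM in WT1, WT2 and WT3 and at 4.04, 4.27 and 7.82 CPM in KO1, KO2 and KO3. KO3 lay closer to the WT libraries than KO1 and KO2 did, without reaching them. Fgf13 had a log2 fold change of -1.13 (standard error 0.28, 95% interval -1.78 to -0.49), and the adjusted p of 0.0540 missed the threshold. Fgf13 passed it with edgeR's exact test (adjusted p = 0.00272), with DESeq2 (0.00571), with limma-voom (0.0425), with upper-quartile scaling (0.0494) and without KO3 (-1.50, adjusted p = 0.00141). These were 5 of 16 alternatives. Without any other 1 library Fgf13 was not called, with adjusted p of 0.0933 to 0.237 in edgeR's quasi-likelihood test. Leaving out KO3 raised the calls over all genes too, to 2496 higher and 2395 lower of 14802 tested.

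Genes of the voltage-gated sodium channels, which FGF13 binds, were tested only in part. Of 13 sodium channel genes listed, 7 were tested, and 6 of them had a negative and 1 a positive log2 fold change (median -0.80). None of the 7 was called, where 4.38% of all tested genes were called higher and 2.09% lower. The other listed channel genes failed the filter on low counts and are in none of these numbers. Scn1a, picked out of them after its values were seen, lay in the opposite direction. It was at 0.0363, 0 and 0.0899 CPM in WT1, WT2 and WT3, below the level of 3 counts, and at 2.30, 1.25 and 0.869 CPM in KO1, KO2 and KO3. The main test left Scn1a out, and its results in the alternatives without that filter are not given here. Scn4b, an auxiliary subunit, was at 154, 105 and 135 CPM in WT and at 37.9, 53.6 and 95.9 CPM in KO1, KO2 and KO3 (log2 fold change -1.07, standard error 0.32, adjusted p = 0.0810). At Scn4b the KO libraries were all below the WT libraries, with KO3 the nearest to them. Scn4b passed the threshold with edgeR's exact test (adjusted p = 0.00616), with DESeq2 (0.0204) and without KO3 (0.00155), and in no other alternative. Sodium channels are known from muscle and nerve, whose marker sums were also lower in the KO libraries. Among the muscle markers, Acta1 (skeletal actin) and Ckm (muscle creatine kinase) had log2 fold changes of -1.29 and -1.09 (adjusted p = 0.0718 and 0.0787). The part of muscle and nerve in the Fgf13 and sodium channel values was not tested.

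Of the receptors, Fgfr1, known mainly from dermal and other mesenchymal cells, was the one kinase receptor whose RNA was called lower. Fgfr1 (chromosome 8, 25518759 to 25575718, plus strand) was at 201, 218 and 179 CPM in WT1, WT2 and WT3 and at 108, 129 and 133 CPM in KO1, KO2 and KO3. The highest KO library lay well below the lowest WT library. Exons of Fgfr1 overlap those of Gm16159 on the opposite strand. Fgfr1 had a log2 fold change of -0.70 (standard error 0.14, 95% interval -1.02 to -0.37, adjusted p = 0.0288). It was not called without any 1 of WT1, WT2, WT3, KO1 and KO2, with log2 fold changes of -0.77 to -0.55 and adjusted p of 0.0688 to 0.163, nor with no filter on low counts (-0.64, adjusted p = 0.0603). The summed fibroblast markers were also lower in KO1 and KO2 than in every WT library, at 3176 and 4008 CPM, and KO3, at 7439 CPM, lay within the WT range. At Fgfr1, KO3 was below every WT library and was the KO library nearest to the WT mean. The part of fibroblasts in the Fgfr1 result was not tested.

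Fgfr2 encodes the receptor through which FGF7 and FGF10 reach keratinocytes, and counts per gene do not separate its epithelial from its mesenchymal splice form. Fgfr2 (chromosome 7, 130162451 to 130266808, minus strand) was at 135, 128 and 132 CPM in WT1, WT2 and WT3 and at 110, 128 and 115 CPM in KO1, KO2 and KO3. The groups overlapped through KO2, and the log2 fold change of -0.16 was not called (standard error 0.12, adjusted p = 0.406). The 95% interval of the KO level ran from 0.740 to 1.09 times the WT level, so that a change as large as that of Fgf7 or Fgfbp1 lies outside it.

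Fgfr3, which is expressed in keratinocytes and known as a brake on bone growth, had the narrowest spread of all members among the KO libraries. Fgfr3 (chromosome 5, 33721724 to 33737068, plus strand) was at 155, 141 and 144 CPM in WT1, WT2 and WT3 and at 147, 148 and 146 CPM in KO1, KO2 and KO3. Both means were 147 CPM, and the KO values fell within the WT range. The log2 fold change of 0.00 (standard error 0.11, adjusted p = 0.984) had a 95% interval of 0.835 to 1.20 in fold, and its sign turned under some other settings. Exons of Fgfr3 overlap G630022F23Rik on the opposite strand.

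Fgfrl1, the receptor without a kinase, fell furthest of the called members. It lies on chromosome 5 (108694229 to 108706950, plus strand) and was at 33.2, 26.1 and 31.2 CPM in WT1, WT2 and WT3 and at 8.80, 13.0 and 19.1 CPM in KO1, KO2 and KO3. The groups did not overlap, but the KO libraries spread over more than a 2-fold range with KO3 at its top. Means were 30.2 ± 3.68 CPM in WT and 13.6 ± 5.19 CPM in KO, with a log2 fold change of -1.15 (standard error 0.27, 95% interval -1.76 to -0.53, adjusted p = 0.0458). The call lay close to the threshold. Without any 1 of WT1, WT2, WT3, KO1 and KO2 it was lost, with log2 fold changes of -1.18 to -0.85 and adjusted p of 0.0841 to 0.210, and without KO3 the log2 fold change was -1.46.

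**Figure D2:**
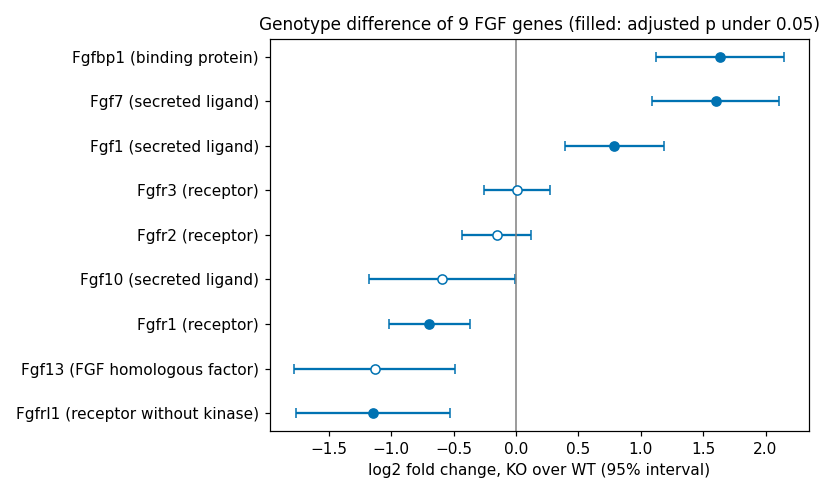
Log2 fold change of the 9 tested members, libraries labelled KO over WT, with 95% intervals from edgeR's quasi-likelihood fit and filled points where the adjusted p was under 0.05. Fgfbp1, Fgf7 and Fgf1 lie to the right of 0 and Fgfr1 and Fgfrl1 to the left, with Fgfr3 at 0.00 and Fgf13 at -1.13 unfilled.

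Fgfbp1 had the lowest p-value of the members. It lies on chromosome 5 (43978858 to 43981828, minus strand), overlaps no other annotated gene, and was at 31.2, 58.2 and 42.9 CPM in WT1, WT2 and WT3 and at 145, 143 and 123 CPM in KO1, KO2 and KO3. Every KO library was more than 2 times as high as the highest WT library, and the WT libraries varied more among themselves than the KO libraries did. The means of 44.1 ± 13.5 CPM in WT and 137 ± 12.0 CPM in KO gave a 3.10-fold rise (log2 fold change 1.63, standard error 0.22, 95% interval 1.12 to 2.15, adjusted p = 0.00451). The call held without any 1 library, with log2 fold changes between 1.43 and 1.94 and an adjusted p of 0.0323 or less. FGFBP1 is a keratinocyte product, and the summed markers of wounding and hyperproliferation were also higher in every KO library than in every WT library. Among them were the keratin genes Krt6a (0.86, adjusted p = 0.0641) and Krt6b (1.48, adjusted p = 0.188). Basal keratin genes were close to level, with Krt5 at a log2 fold change of -0.04 and Krt14 at 0.15 (adjusted p = 0.918 and 0.631). In the suprabasal layer, Krt1 was at 1.18 and Krt10 at 0.64 (adjusted p = 0.0584 and 0.163). The part of these keratinocyte states in the Fgfbp1 result was not tested.

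Set beside the receptors in the same library, the CPM ratio of Fgfbp1 to each was higher in KO. Gene length sets the size of such a ratio but not its change between libraries, so only the change is read. Its CPM divided by that of Fgfr2 was 0.232, 0.455 and 0.326 in WT1, WT2 and WT3 and 1.31, 1.12 and 1.07 in KO1, KO2 and KO3. Against Fgfr1 the mean ratio was 0.221 ± 0.058 in WT and 1.13 ± 0.20 in KO, and against Fgfr3 it was 0.304 ± 0.106 and 0.932 ± 0.077 (SD, n = 3). In each of these pairs the lowest KO ratio was above the highest WT ratio. The ratio of Fgf7 to its receptor gene Fgfr2 was 0.077 ± 0.016 in WT and 0.262 ± 0.068 in KO, whereas that of Fgf10 to Fgfr2 was 0.048 ± 0.005 and 0.035 ± 0.012, with KO3 (0.0488) inside the WT range. Among the receptors, the CPM ratio of Fgfr1 to Fgfr3 was 1.30, 1.55 and 1.25 in the WT libraries and lower in each KO library, at 0.737, 0.869 and 0.910.

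As a summary with no test, the mean log2 CPM of the 4 secreted ligands and Fgfbp1 was compared with that of the 4 receptor genes in each library. The ligand side stood at 3.22, 3.54 and 3.08 in WT1, WT2 and WT3 and at 3.94, 3.91 and 3.87 in KO1, KO2 and KO3. The receptor side stood at 6.76, 6.66 and 6.67 in WT and at 5.97, 6.23 and 6.34 in KO. Both sides thus moved toward each other, and their difference went from -3.42 ± 0.26 in WT to -2.28 ± 0.22 in KO (SD, n = 3), a shift of 1.14 that lay between 1.02 and 1.29 under each alternative. The ligand mean joins genes that rose with Fgf2 and Fgf10, which did not. The receptor mean joins Fgfr1 and Fgfrl1, which were called lower (log2 fold changes -0.70 and -1.15), with Fgfr2 and Fgfr3, which were not called (-0.16 and 0.00). The members were chosen with their values known.

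**Figure D3:**
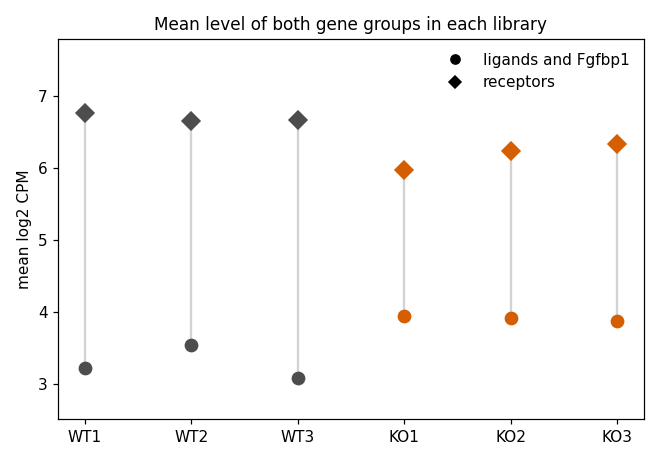
Mean log2 CPM of Fgf1, Fgf2, Fgf7, Fgf10 and Fgfbp1 (circles) and of Fgfr1, Fgfr2, Fgfr3 and Fgfrl1 (diamonds) in each library, joined by a grey line, with WT in grey and KO in orange. The lines are shorter in the 3 KO libraries, with ligand means of 3.87 to 3.94 and receptor means of 5.97 to 6.34.

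Levels of different genes were compared per length, as RPKM, that is CPM divided by the length in kilobases, over the union of annotated exons. In WT lip the order of the means ran from Fgfr1 (20.7 RPKM), Fgfr3 (20.6), Fgfbp1 (19.5), Fgfr2 (13.1) and Fgfrl1 (11.1) to Fgf1 (5.002), Fgf7 (3.12), Fgf13 (2.93), Fgf10 (1.48) and Fgf2 (0.168). The receptor genes thus stood above all 4 ligands, and only Fgfr1 with Fgfr3, Fgfr3 with Fgfbp1, and Fgf7 with Fgf13 overlapped as neighbours. In the KO libraries Fgfbp1 came first at 60.5 ± 5.30 RPKM, well clear of Fgfr3 at 20.7. Fgfr1 (12.8), Fgfr2 (11.8), Fgf7 (9.47), Fgf1 (8.64) and Fgfrl1 (5.03) followed, each overlapping the next, so that the means of the ligands Fgf7 and Fgf1 stood above that of Fgfrl1 and Fgf7 overlapped Fgfr2. Fgf13 (1.34) and Fgf10 (0.976) overlapped each other, and Fgf2 was last at 0.134 RPKM.

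**Figure D4:**
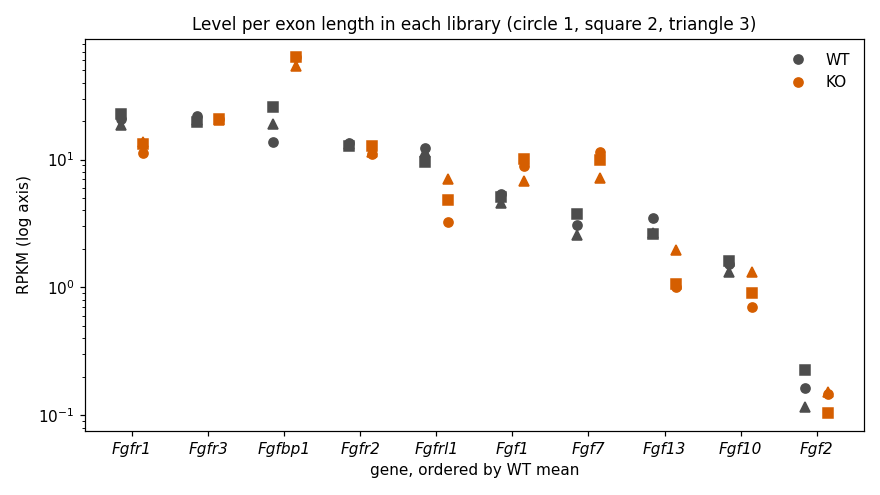
RPKM (log axis) of the 10 genes in each library, WT in grey and KO in orange, ordered by the WT mean from Fgfr1 at 20.7 to Fgf2 at 0.168 RPKM. The orange points of Fgfbp1 stand above all others. Those of Fgf1 rise to the range of Fgfrl1, and those of Fgf7 reach the range of Fgfr2 only in KO1.

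Beyond the 10 members, the FGF pathway was read from 8 lists of 116 genes, of which 91 were tested. In these lists 1 gene was called higher (1.1%, against 4.38% of all tested genes) and 1 lower (1.1%, against 2.09%). Log2 fold changes were positive in 36 genes (39.6%, against 48.0% of all tested genes) and negative in 55, with a median of -0.12. Most of these 91 genes were not called, as was the case for most of all tested genes. Members and lists were chosen with earlier results of these data known, so the 2 are not set against each other. The difference from all genes was not tested, and edgeR's exact test called 2 of the 91 higher and 8 lower, where it called 1165 and 1073 of all 15009. At an unadjusted p under 0.05 there were 21 genes.

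The gene called higher was Fosl1, which encodes the AP-1 subunit FRA1, a transcriptional target of MAP kinase signalling. Fosl1 was at 6.02, 3.95 and 3.87 CPM in WT1, WT2 and WT3 and at 11.8, 11.7 and 12.6 CPM in KO1, KO2 and KO3, about 2 times the highest WT value in each KO library (log2 fold change 1.38, standard error 0.21, adjusted p = 0.00895). Without WT3 the call was lost (1.26, adjusted p = 0.0531). None of the other 18 tested genes of the feedback inhibitors and targets was called, a list that holds the Sprouty, Spred and Dusp inhibitors and the Etv factors, and 11 of the 19 were negative (median -0.09).

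The gene called lower was Flrt1, which encodes a membrane protein that binds FGF receptors. Flrt1 was at 8.31, 7.48 and 11.9 CPM in WT and at 4.66, 4.96 and 5.21 CPM in KO, with a log2 fold change of -0.90 (standard error 0.22, adjusted p = 0.0490). The groups did not overlap, but the call was lost without any 1 of WT1, WT2, WT3, KO1 and KO2 (-0.97 to -0.68, adjusted p 0.0664 to 0.218) and in 6 other alternatives. Its list of other receptors, coreceptors and binding proteins had 6 tested genes, 4 of them negative (median -0.22). Flrt3, a relative of Flrt1 that was picked out after its values were seen, lay in the opposite direction, at 44.0, 65.8 and 57.8 CPM in WT and 126, 110 and 75.3 CPM in KO1, KO2 and KO3 (0.90, standard error 0.22, adjusted p = 0.0558). Fgfbp3, a relative of Fgfbp1 picked out in the same way, was at 4.94, 4.17 and 9.49 CPM in WT and 3.63, 2.70 and 3.66 CPM in KO (-0.90, standard error 0.33, adjusted p = 0.122).

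Heparan sulfate, the coreceptor of FGF signalling, is carried by core proteins of which 11 of 12 were tested. None was called, where 4.38% of all tested genes were called higher and 2.09% lower. The log2 fold change was negative in 10, where 48.0% of all tested genes were positive. The median was -0.32, where that of all tested genes was -0.02. Sdc3 (syndecan 3) was at 83.0, 67.0 and 81.4 CPM in WT and at 30.0, 43.7 and 56.6 CPM in KO1, KO2 and KO3 (log2 fold change -0.83, standard error 0.23, adjusted p = 0.0690). Hspg2 (perlecan, of basement membranes) was at 514, 378 and 481 CPM in WT and at 172, 257 and 358 CPM in KO1, KO2 and KO3 (-0.80, standard error 0.26, adjusted p = 0.0947). In both genes every KO library lay below every WT library, with KO3 the nearest to them. The enzymes that build and trim the chains had 18 of 21 genes tested, none called and a median of -0.07, with Hpse (heparanase) at 0.39 and Hs3st6 (a sulfotransferase) at -0.66 (adjusted p = 0.261 and 0.269).

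All 25 genes of the receptor adaptors and the MAP kinase relay were tested and none was called (15 positive, median 0.05), where 4.38% of all tested genes were called higher and 2.09% lower. Gab1, a docking protein, had the lowest p of them, at 90.5, 83.5 and 90.3 CPM in WT and 59.8, 62.1 and 69.1 CPM in KO, with a log2 fold change of -0.47 (standard error 0.12, adjusted p = 0.0618). Nras, a small GTPase of the relay, was at 87.9, 112 and 82.0 CPM in WT and 147, 151 and 119 CPM in KO (0.56, standard error 0.17, adjusted p = 0.0795). Neither overlapped between genotypes, and neither passed the threshold.

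Of 14 other secreted ligand genes only 3 passed the filter on low counts and none was called. Fgf22, of the same subfamily as Fgf7 and Fgf10, was at 8.57 ± 0.73 CPM in WT and 7.94 ± 0.42 CPM in KO (log2 fold change -0.11, adjusted p = 0.668). Fgf18, known from the hair cycle, was at 3.03 ± 0.64 and 2.71 ± 0.81 CPM (-0.16, adjusted p = 0.736). Of the relatives of Fgf13, Fgf11 was at 6.23 ± 0.45 and 5.58 ± 0.96 CPM and Fgf14 at 1.26 ± 0.36 and 1.64 ± 0.82 CPM (adjusted p = 0.601 and 0.566). The differences of these 4 genes were within the spread between the libraries.

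**Figure D5:**
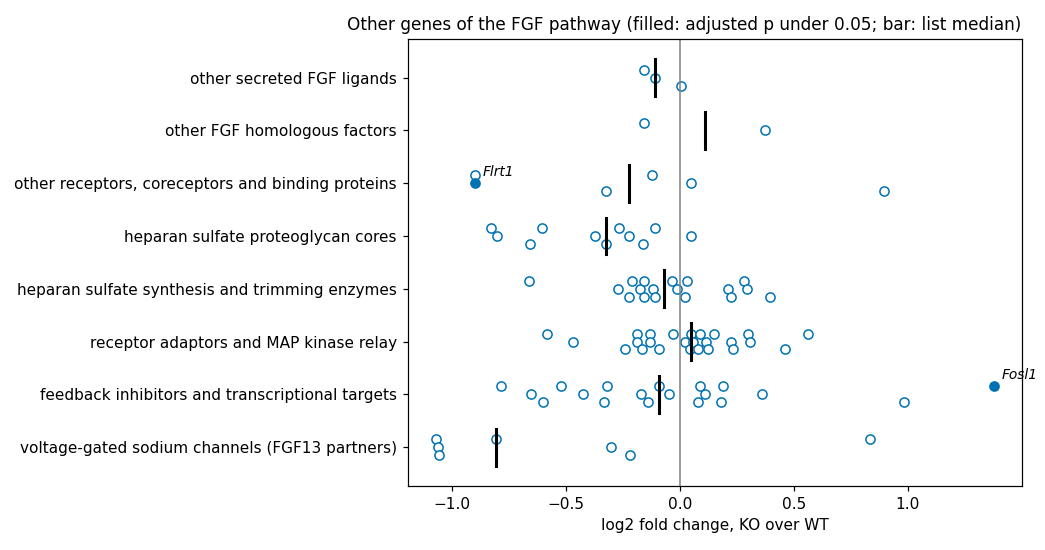
Log2 fold change (libraries labelled KO over WT) of the 91 tested genes in the 8 pathway lists, 1 point per gene, filled where the adjusted p was under 0.05, with a black bar at each list's median. Fosl1 at 1.38 and Flrt1 at -0.90 are the filled points, and the medians run from -0.80 for the sodium channels to 0.11 for the other FGF homologous factors.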

How the data were processed

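Lip RNA of 3 WT and 3 KO mice was sequenced as paired-end mRNA libraries on the HiSeq2000. The authors aligned to GRCm38 by TopHat2 2.0.8 and Bowtie2 2.1.0, versions as in the submitters' processing notes, and deposited HTSeq counts per gene symbol, not normalized. Whether counting used strand is not given in the sources used here. A further RT-qPCR experiment was not analysed here.

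Counts were analysed in R 4.3.3 with edgeR 4.0.16 after TMM scaling, in genes that reached 1 CPM, taken before the TMM factors, in 3 or more libraries (15009 genes, 99.8% of counts). Genotypes were compared by glmQLFit (legacy=FALSE) and glmQLFTest in place of the exact test of the study, with Benjamini-Hochberg adjustment over all tested genes. Values are CPM or, between genes, RPKM over GENCODE M21 exons within RefSeq gene spans. A two-sided exact permutation test of 3 against 3 cannot go below p = 0.1, the value of each member without overlap. Replicates are separate mice, and each pair differed by more than sampling noise. Alternatives used limma 3.58.1, DESeq2 1.42.0, other scalings and filters, an adjusted p under 0.1, and each of the 6 libraries left out. The procedure was tested on simulated data. Floors of 3 counts cover counting error only. Figures were drawn with matplotlib 3.10.9 in Python 3.11.15. Members and lists were chosen with earlier results of these data known. Genes named besides the members were, in each pathway list, those called or else the 2 of lowest p, the first 2 tested markers of the lists that bear on a member, Gtf2ird1, and for the 2 members of lowest p the 5 genes of most similar pattern. Some genes that this rule would name are not reported here.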

Additional observations from a re-analysis of the deposited data

How the results depend on the processing

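Fgfbp1 and Fgf7 passed the threshold under all 16 alternatives, 10 of them other tests, scalings or filters or the block and 6 with 1 library left out. The count of members called higher lay between 2 and 3. The 2 members called lower became 3 with edgeR's exact test, DESeq2, limma-voom, upper-quartile scaling and an adjusted p under 0.1, became 1 with DESeq2 size factors, with no filter, with at least 10 counts in every library and with the replicate block, and 0 to 4 when a library was left out, with 4 without KO3 and 0 without any other. The count of all called genes moved likewise: without KO3, 2496 were higher and 2395 lower, against 657 and 314 in all libraries. Fgfrl1 had an adjusted p of 0.0522 with DESeq2 size factors and of 0.0516 with at least 10 counts. Of the pathway genes, 1 called higher became 2 with edgeR's exact test, 4 with DESeq2, 3 with no filter, 3 at an adjusted p under 0.1 and 0 to 7 with a library left out. The 1 called lower became 8 with the exact test, 7 with DESeq2, 8 at an adjusted p under 0.1, 0 with limma-voom, the older quasi-likelihood fit, DESeq2 size factors, no filter, at least 10 counts or the replicate block, and 0 to 15 with a library left out. The sign of Fgfr3 turned with library size alone (-0.0052), with upper-quartile scaling (-0.0522) and with a library left out (-0.0119 to 0.0679, lowest without WT3), and those of Fgf11 (-0.2932 to 0.0031) and Fgf18 (-0.3872 to 0.0879) turned without KO1. The cause was not tested.

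Whether the replicate numbers pair the libraries cannot be told from the labels. Deviations from the group means correlated at -0.192, 0.293 and 0.312 for numbers 1, 2 and 3. Pairs of unlike numbers ran from -0.504 to 0.407, and with 3 libraries per group these values do not settle it. With the replicate number as a block, 580 genes were higher and 217 lower, Fgfrl1 had an adjusted p of 0.0502 and Flrt1 of 0.0593, and the members called lower and pathway genes called lower were 1 and 0. Of the members, Fgf2, with 17 to 35 counts per library, was kept out of the test by the filter on CPM, a level relative to library size.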

Other observations

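Over the 6 libraries, 407 tested genes had a log2 CPM that correlated with that of Fgfbp1 at Pearson's r above 0.95. The 5 most alike were Hspa8 (0.999), Lsg1 (0.998), Mina (0.997), Pdia3 (0.996) and Scarb2 (0.994). Hspa8 and Pdia3 encode chaperones, of the cytosol and of the endoplasmic reticulum. For Fgf7 there were 457 such genes, led by Tfcp2 (0.998), Hspd1 (0.998), Gm26797 (0.997), Hmgn3 (0.996) and Dppa5a (0.995). The 6 points share the split between genotypes, which alone gives a high r to any gene that differs between them.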
